A study of Rattus norvegicus with 16 samples.

Results

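The genes described here are the chemokines, the interleukins, the tumour necrosis factor (TNF) family and the Toll-like receptors, with the receptors of each family, in rat diaphragm. Their members were taken from the probe-to-gene table by symbol: every Ccl, Ccr, Cxcl, Cxcr, Il or Tlr followed by a digit, every Tnfsf and Tnfrsf, and Tnf, without Il6r and Il6st. This gave 150 genes among 23188 transcript clusters and 15037 symbols. They fell into 35 interleukins, 34 interleukin receptors, 20 CC chemokines, 15 chemokine receptors, 14 TNF receptors, 12 Toll-like receptors, 11 CXC chemokines and 9 TNF ligands.

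RNA of diaphragm muscle from 16 male Wistar rats aged 14 to 16 weeks, 4 in each of 4 groups, was measured with 1 Clariom S array for each animal. E-V12 rats had 12 h of mechanical ventilation with electrical stimulation of the diaphragm through implanted electrodes. S-V12 rats had the same ventilation and the electrode operation as a sham. V12 rats were ventilated for 12 h through a tracheostomy, and CON rats were not ventilated. All rats were anaesthetized with isoflurane and urethane, the ventilated rats also had atropine, and E-V12 and S-V12 rats breathed supplemental oxygen. In both operated groups tissue next to the electrode was removed when specimens were made. Whether it was discarded or was the specimen is not clear from the methods. CON diaphragms were taken directly after anaesthesia. S-V12/V12 therefore holds the operation together with the oxygen, and V12/CON holds ventilation together with the tracheostomy, the drugs and the elapsed time. E-V12/CON holds all of these together with the stimulation. Within each comparison these parts cannot be told apart. The label of the tissue was checked with 12 striated muscle markers, whose mean log2 signal was 19.23 to 19.31 in E-V12, 19.14 to 19.24 in S-V12, 19.37 to 19.45 in V12 and 19.12 to 19.46 in CON.

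Chemokines bind receptors on leukocytes and draw them along a gradient, and CC and CXC chemokines differ in the spacing of their first cysteines. Interleukins and TNF ligands carry signals between immune, stromal and muscle cells through JAK and STAT proteins or through adaptors that lead to NF-kB. Toll-like receptors recognise microbial products and molecules released by damaged cells, and skeletal muscle fibres themselves express several of these receptors and cytokines.

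Most of the 150 genes gave weak signals. Each array carries 23 background rows, and the highest of them lay at a log2 signal of 6.39 to 7.20 depending on the array. Between 8.7% and 21.3% of the 150 genes lay above that row, against 33.0% to 40.9% of all clusters. On all arrays of at least 1 group, 25 genes did so, against 39.4% of all clusters, and 105 genes did so on no array. The 11 genes above it on all 16 arrays were Ccl21, Ccl6, Cxcl12, Cxcl14, Cxcl9, Tnfrsf11b, Tnfrsf1a, Tnfrsf21, Il11ra1, Il13ra1 and Il18bp. Among the ligands that define an inflammatory response, Tnf averaged 4.07 ± 0.24 in E-V12, 3.89 ± 0.48 in S-V12, 3.84 ± 0.23 in V12 and 3.87 ± 0.30 in CON (SD, n = 4 each, as for all means below), and lay below the highest background row on every array. The same held for Il1a, Il1b, Il6, Il10, Il18, Ccl3, Ccl5 and Cxcl10. Where both groups lie below that row, a difference rests on signals no stronger than background rows can be, so it is given on the log2 scale and without a fold. In whole-muscle RNA, fewer cells of a type and less RNA per cell cannot be told apart.

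Genes of these families passed the test in V12/CON, S-V12/V12 and, in the largest number, E-V12/CON, while 0 passed in E-V12/S-V12. By limma with Benjamini-Hochberg adjustment over all clusters (adjusted p under 0.05), 8 of 150 genes were higher and 6 lower in V12/CON, or 5.33% and 4%, against 7.68% and 8.67% of all clusters. Other scalings changed the split, to 6 and 7 with quantile normalization and 6 and 9 with median centring. In S-V12/V12, 13 were higher and 7 lower (8.67% and 4.67%), against 8.05% and 6.66% of all clusters, and the split was 15 and 4 with quantile normalization and 16 and 3 with median centring. In E-V12/CON, 28 were higher and 9 lower (18.7% and 6%), against 10.9% and 12.6% of all clusters. These counts were 11 and 8 with the methods' t-test and adjustment, 17 and 6 with its unadjusted p and a fold of 2, and 13 and 3 with dim clusters left out. In E-V12/S-V12, 0 were higher and 0 lower, against 1.19% and 1.51% of all clusters. At an unadjusted p under 0.05 this last comparison had 9 higher and 3 lower, and the methods' t-test with adjustment also called 0. Separate ranges were found for 13 genes above and 7 below in V12/CON (7.99% and 8.43% of all clusters), for 19 and 9 in S-V12/V12 (10.6% and 9.26%), and for 20 and 10 in E-V12/CON (11.2% and 12.2%). The comparisons share groups, so their counts are not independent of each other.

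**Figure D1:**
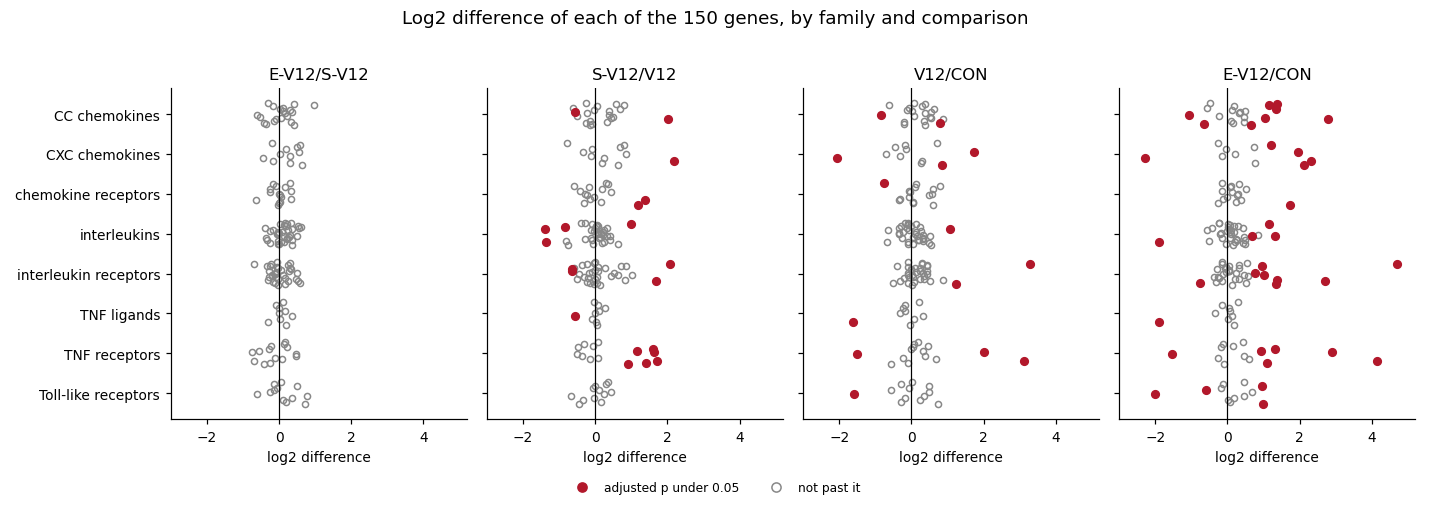
Log2 difference (x axis) of each of the 150 genes in 8 families (y axis) for 4 comparisons, with filled red points for genes past an adjusted p of 0.05 and open grey points for the others. The points farthest to the right are Il4r and Tnfrsf12a, at 4.68 and 4.14 in E-V12/CON, and E-V12/S-V12 has no filled point.

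By role, the 63 chemokine, interleukin and TNF receptors had 10 higher and 2 lower in S-V12/V12, where the 75 ligands had 3 higher and 5 lower. In V12/CON the receptors had 4 higher and 2 lower and the ligands 4 and 3. In E-V12/CON both had 13 higher, with 2 lower among receptors and 5 among ligands. Of all clusters, 8.05% rose and 6.66% fell in the S-V12/V12 fit. The matching shares were 7.68% and 8.67% for V12/CON, then 10.9% and 12.6% for E-V12/CON. Rises exceeded these shares among receptors in the S-V12/V12 fit and in both roles for E-V12/CON. The other counts by role were near or below them. Neither these departures nor the difference between receptors and ligands was tested. The TNF receptors had the largest share in S-V12/V12, with 6 of 14 higher and 0 lower. The median log2 difference of the 150 genes was 0.07 (0.04 over all clusters) in V12/CON. It was 0.04 for S-V12/V12 (-0.05), 0.04 for E-V12/S-V12 (0.02) and 0.14 for E-V12/CON (0.01). The median member therefore lay near 0. Of the 150 genes, 105 lay above the highest background row on no array, which limits what that median shows. In E-V12/CON, 100 of the 150 differences were positive.

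Interleukin receptors gave the widest difference. Il4r encodes the alpha chain that binds IL-4 and takes part in both IL-4 and IL-13 signalling. Its log2 signal was 12.62, 11.42, 12.16 and 12.24 in E-V12, 13.21, 12.54, 12.74 and 12.75 in S-V12, 9.41, 11.0, 10.95 and 11.55 in V12, and 7.59, 7.30, 7.19 and 7.63 in CON. All ventilated rats stood above all CON rats, and the S-V12 rats stood above all V12 rats, while 1 E-V12 rat lay below the highest V12 rat. Il4r rose by 3.30 ± 0.33 in V12/CON (SE, adjusted p = 1.44e-07), by a further 2.08 ± 0.33 in S-V12/V12 (adjusted p = 0.000132) and by 4.68 ± 0.33 in E-V12/CON (adjusted p = 2.65e-10), a fold of 25.7. These calls held under every alternative run.

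Il13ra1, the IL-13 receptor chain that pairs with Il4r, had log2 signals of 12.81, 11.96, 12.28 and 12.39 in E-V12, 11.93, 11.50, 11.87 and 12.07 in S-V12, 9.29, 10.66, 10.52 and 10.17 in V12, and 8.62, 10.26, 9.89 and 9.85 in CON. Here V12 and CON overlapped, and both operated groups stood above them. The difference was 0.50 ± 0.31 in V12/CON (adjusted p = 0.327), and the gene rose by 1.68 ± 0.31 in S-V12/V12 (adjusted p = 0.000672) and by 2.70 ± 0.31 in E-V12/CON (adjusted p = 6.17e-07). Il10rb, a chain shared by receptors of the IL-10 family, followed another order. It averaged 7.17 ± 0.51 in E-V12, 7.01 ± 0.49 in S-V12, 7.05 ± 0.41 in V12 and 5.82 ± 0.44 in CON. All 12 ventilated rats lay above the 4 CON rats, none of which reached the highest background row, so the level in V12 was at least 1.33-fold higher than in CON (adjusted p = 0.00392), and that in E-V12 at least 1.45-fold higher (adjusted p = 0.00102). The V12/CON call was lost with the methods' t-test (adjusted p = 0.0733).

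Of the remaining 31 interleukin receptors, 4 rose in E-V12/CON and 1 fell, against 10.9% and 12.6% of all clusters. The number that rose was near that share. Il17ra, the common receptor chain of IL-17 cytokines, averaged 6.73 ± 0.89 in E-V12 and 5.35 ± 0.38 in CON, where no array reached the highest background row (at least 1.07-fold higher, adjusted p = 0.00463, and 0.12 with the methods' t-test). Il1rl1, the receptor of IL-33, averaged 7.41 ± 0.16 in E-V12 and 6.66 ± 0.61 in CON (adjusted p = 0.0191), a call lost without CON replicate 1 (0.0861) or E-V12 replicate 4 (0.0524), or with the methods' t-test (0.181). Il1r2, a decoy receptor of IL-1, and Il31ra were higher by 1.02 ± 0.35 and 0.96 ± 0.31, mostly or wholly below the highest background row. The Il1r2 call was lost without any of 5 arrays (CON replicates 1, 2 and 4, E-V12 replicates 1 and 4; adjusted p 0.0532 to 0.175), and the Il31ra call without CON replicate 1 or 4 or E-V12 replicate 2 or 4 (0.0675 to 0.103), and the methods' t-test gave 0.303 and 0.169. Il11ra1, the IL-11 receptor, was the gene that fell, to 7.10 ± 0.14 in E-V12, against 7.86 ± 0.28 in CON (adjusted p = 0.00243), and the 4 E-V12 rats lay below the 4 CON rats.

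Of the 14 TNF receptors, 6 rose in S-V12/V12 and 5 in E-V12/CON, against 8.05% and 10.9% of all clusters. Of the 9 TNF ligands 0 did so, which is near those shares. Tnfrsf12a encodes Fn14, the receptor of TWEAK, whose own gene is Tnfsf12. Tnfrsf12a had log2 signals of 12.31, 11.73, 12.64 and 12.43 in E-V12, 13.21, 12.91, 13.35 and 12.43 in S-V12, 10.81, 11.64, 10.93 and 11.66 in V12, and 7.37, 8.19, 6.63 and 10.35 in CON. Every ventilated rat lay above every CON rat, although 1 CON rat stood well above the other 3. The gene rose by 3.12 ± 0.49 in V12/CON (adjusted p = 6.72e-05), by 1.71 ± 0.49 in S-V12/V12 (adjusted p = 0.0189) and by 4.14 ± 0.49 in E-V12/CON (adjusted p = 8.56e-07), a fold of 17.6. The call in V12/CON was lost with the methods' t-test (adjusted p = 0.0918). The call in S-V12/V12 was lost without V12 replicate 1 (0.0547) or 3 (0.0571) or S-V12 replicate 1 (0.0518) or 3 (0.0549), and with trend and robust variances (0.0691). Tnfsf12 itself stayed below the highest background row on every array, at 4.78 ± 0.20 in E-V12, 4.43 ± 0.19 in S-V12, 5.0 ± 0.12 in V12 and 4.67 ± 0.30 in CON. Its difference of -0.58 ± 0.19 in S-V12/V12 passed the test (adjusted p = 0.043) and was lost without any of 8 arrays (V12 replicates 2, 3 and 4, all 4 S-V12 replicates and E-V12 replicate 2; 0.0502 to 0.128).

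Tnfrsf1a, the main signalling receptor of TNF, had log2 signals of 10.64, 9.95, 10.36 and 10.55 in E-V12, 11.51, 11.30, 10.64 and 11.09 in S-V12, 9.03, 9.30, 10.21 and 9.45 in V12, and 7.57, 7.67, 7.76 and 6.93 in CON. The CON rats lay below all others and the S-V12 rats above all V12 rats. It rose by 2.02 ± 0.26 in V12/CON (adjusted p = 5.41e-06), by 1.64 ± 0.26 in S-V12/V12 (adjusted p = 0.000132) and by 2.9 ± 0.26 in E-V12/CON (adjusted p = 1.26e-08), a fold of 7.44, and these calls held under every alternative. Tnfrsf1b, the other TNF receptor, averaged 6.19 ± 0.23 in E-V12, 6.73 ± 0.53 in S-V12, 5.59 ± 0.18 in V12 and 5.26 ± 0.74 in CON. It passed in S-V12/V12 (at least 1.20-fold higher, adjusted p = 0.00925) and in E-V12/CON (adjusted p = 0.022), the second lost without CON replicate 2 (0.106) or E-V12 replicate 1 (0.0654), and both lost with the methods' t-test (0.0542 for S-V12/V12, 0.179 for E-V12/CON).

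Tnfrsf21, also called death receptor 6, and Tnfrsf11b, the secreted decoy osteoprotegerin, passed the test in S-V12/V12 and not in V12/CON, though the difference between these 2 comparisons was not tested. Tnfrsf21 averaged 9.54 ± 0.74 in E-V12, 9.82 ± 0.29 in S-V12, 8.21 ± 0.39 in V12 and 8.21 ± 0.67 in CON, and rose by 1.61 ± 0.33 in S-V12/V12 (adjusted p = 0.00166). Tnfrsf11b averaged 8.50 ± 0.62 in E-V12, 8.75 ± 0.64 in S-V12, 7.33 ± 0.20 in V12 and 7.42 ± 0.90 in CON, and rose by 1.42 ± 0.37 in S-V12/V12 (adjusted p = 0.0105), a call lost without S-V12 replicate 1 (0.0521) and with the methods' t-test (0.0507). In both, the S-V12 rats lay above all V12 rats, and V12 and CON overlapped. Tnfrsf19, a receptor known as TROY, went the other way: its V12/CON difference was -1.51 ± 0.26, with means of 5.21 ± 0.08 in V12 and 6.72 ± 0.66 in CON and no overlap (adjusted p = 0.000187; at least 1.18-fold higher in CON; 0.0563 with the methods' t-test). E-V12 stood at 5.17 ± 0.33 and S-V12 at 4.70 ± 0.28.

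**Figure D2:**
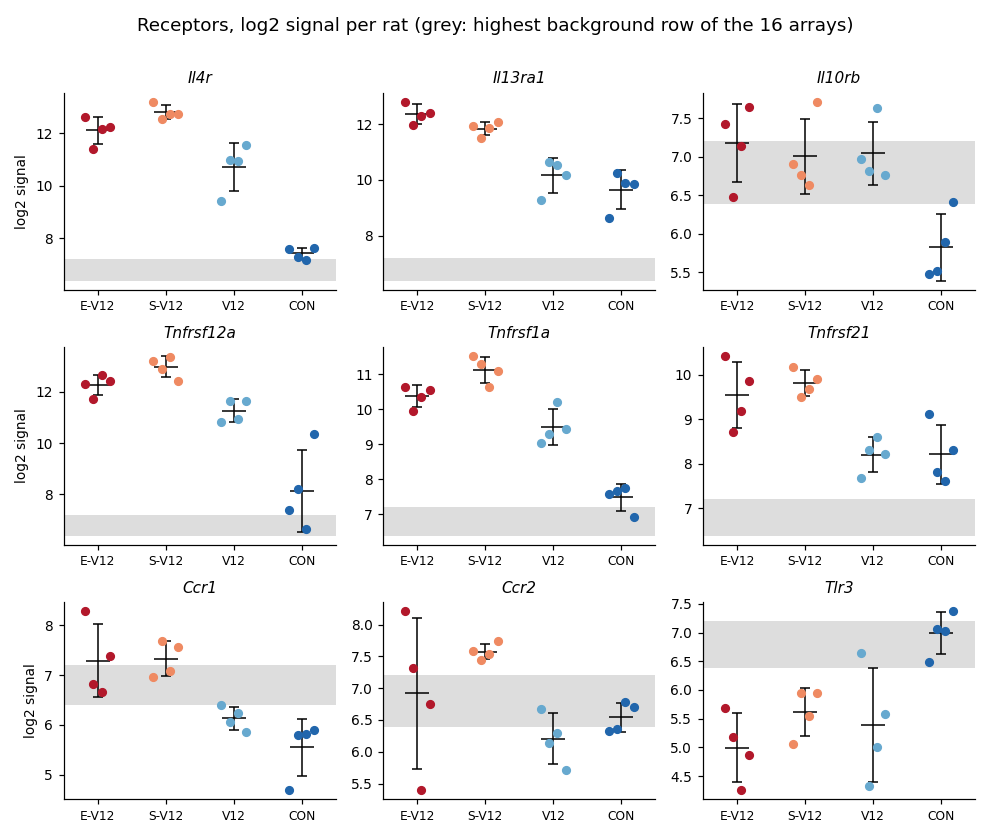
Log2 signal (y axis) of 9 receptor genes in each rat of the 4 groups (x axis), with the mean and SD of 4 rats in black and, in grey, the span of the highest background row over the arrays, 6.39 to 7.20. Il4r, Tnfrsf12a and Tnfrsf1a are lowest in CON and highest in S-V12, Il13ra1 and Tnfrsf21 overlap between V12 and CON, and Tlr3 is highest in CON.

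Among the 9 TNF ligands, 0 rose in any comparison. Over all clusters 1.19% to 10.9% were higher, depending on the comparison, and 0 of 9 is near those shares. Tnfsf10, which encodes the death ligand TRAIL, had log2 signals of 4.24, 4.35, 4.20 and 4.98 in E-V12, 4.23, 5.04, 4.85 and 4.90 in S-V12, 5.30, 4.31, 5.07 and 4.29 in V12, and 5.85, 6.40, 6.90 and 6.25 in CON. The CON rats lay above all ventilated rats, with all 16 arrays below the highest background row. Its difference was -1.61 ± 0.27 in V12/CON (adjusted p = 0.00015) and -1.91 ± 0.27 in E-V12/CON (adjusted p = 1.03e-05).

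Chemokine ligands moved in both directions. Cxcl12, which holds CXCR4-bearing cells in tissue, fell. Its log2 signal was 8.89, 9.10, 9.24 and 9.61 in E-V12, 9.36, 9.67, 10.12 and 9.51 in S-V12, 9.79, 9.27, 9.72 and 8.93 in V12, and 10.77, 11.36, 12.19 and 11.68 in CON. The 3 ventilated groups overlapped, and every CON rat stood above them. The log2 difference of Cxcl12 was -2.07 ± 0.27 in V12/CON (adjusted p = 6.86e-06) and -2.29 ± 0.27 in E-V12/CON (adjusted p = 8.5e-07), with every alternative giving the same call. Some markers of stromal cells, which make Cxcl12 and Il33, were also called. Of 9 fibroblast markers, 2 were higher and 5 lower in E-V12/CON (median -1.12; 10.9% and 12.6% of all clusters), 1 was higher in S-V12/V12 (8.05% of all clusters), and 0 were called in V12/CON (median -0.65). Their mean log2 signal was 9.19 to 10.19 in E-V12, 9.65 to 10.55 in S-V12, 9.05 to 10.76 in V12 and 9.45 to 10.74 in CON, with 1 below the highest background row throughout each group. Of 11 endothelial markers, V12/CON had 3 higher and 1 lower, S-V12/V12 had 1 higher, E-V12/S-V12 had 1 lower, and E-V12/CON had 1 higher and 4 lower, with means of 6.32 to 6.48 in E-V12, 6.57 to 7.09 in S-V12, 6.31 to 7.18 in V12 and 6.60 to 6.95 in CON and 5, 4, 4 and 4 below that row. Of 7 mesothelial markers, 1 was higher and 1 lower in V12/CON and in E-V12/CON, and 1 was lower in S-V12/V12, with means of 6.39 to 8.60, 6.76 to 7.36, 7.82 to 8.13 and 6.87 to 8.32 in the same groups and 0, 2, 1 and 2 below that row. For comparison, the V12/CON fit called 7.68% of the whole array higher and 8.67% lower. The S-V12/V12 fit called 8.05% and 6.66%, the E-V12/S-V12 fit 1.19% and 1.51%, and the E-V12/CON fit 10.9% and 12.6%. A count of 1 among 7 or 11 markers rests on a single gene and is no clear departure from such shares. No departure from them was tested. The part of the fibroblast, endothelial and mesothelial markers in the differences of Cxcl12 and Il33 was not tested. The receptor Cxcr4 lay between 2.74 and 4.96 on all arrays, below the highest background row.

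Cxcl16, a membrane-bound chemokine and scavenger receptor, averaged 8.77 ± 0.41 in E-V12, 8.21 ± 0.21 in S-V12, 8.55 ± 0.35 in V12 and 6.81 ± 0.56 in CON. All CON rats lay below all ventilated rats, and the gene rose by 1.74 ± 0.26 in V12/CON (adjusted p = 4.16e-05) and by 1.96 ± 0.26 in E-V12/CON (adjusted p = 4.69e-06). Cxcr6, its receptor, stayed below the highest background row, between 2.62 and 4.14. It was lower in V12, at 2.92 ± 0.26, than in CON, at 3.69 ± 0.30 (adjusted p = 0.0219), a call lost without CON replicate 2 or 3 or V12 replicate 2 or 4 (0.051 to 0.0796) and with the methods' t-test (0.0842).

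Ccl2, the main chemokine for monocytes, had log2 signals of 10.96, 7.13, 8.52 and 9.52 in E-V12, 9.06, 8.25, 10.35 and 8.82 in S-V12, 6.34, 8.06, 6.58 and 7.48 in V12, and 5.42, 6.41, 5.85 and 7.28 in CON. The E-V12 rats spread widest, and 1 of them fell below the highest CON rat. Ccl2 rose by 2.01 ± 0.59 in S-V12/V12 (adjusted p = 0.0222) and by 2.79 ± 0.59 in E-V12/CON (adjusted p = 0.000942), against 0.87 ± 0.59 in V12/CON (adjusted p = 0.372). The S-V12/V12 call was lost without V12 replicate 1 (0.0716) or 3 (0.0712) or S-V12 replicate 3 (0.09), and the methods' t-test gave 0.0939 for it and 0.0991 for E-V12/CON.

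The receptors of Ccl2 and of related chemokines are Ccr2 and Ccr1, which mark monocytes. Ccr1 had log2 signals of 8.28, 6.81, 6.66 and 7.38 in E-V12, 6.96, 7.69, 7.09 and 7.56 in S-V12, 6.39, 6.05, 6.24 and 5.86 in V12, and 4.68, 5.80, 5.81 and 5.89 in CON. All operated rats lay above all others, and none of the V12 or CON arrays reached the highest background row. Ccr1 was at least 1.8-fold higher in S-V12/V12 (adjusted p = 0.0104) and at least 1.57-fold higher in E-V12/CON (adjusted p = 0.000159; 0.059 with the methods' t-test). Ccr2 averaged 6.92 ± 1.18 in E-V12, 7.58 ± 0.13 in S-V12, 6.21 ± 0.40 in V12 and 6.54 ± 0.23 in CON, and rose in S-V12/V12 by 1.37 ± 0.37 (adjusted p = 0.0133).

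Ccl7, another monocyte chemokine and a neighbour of Ccl2 in its gene cluster, averaged 6.97 ± 0.88 in E-V12, 6.55 ± 0.34 in S-V12, 5.98 ± 0.17 in V12 and 5.59 ± 0.59 in CON, at least 1.26-fold higher in E-V12/CON (adjusted p = 0.00339; 0.152 with the methods' t-test). Ccl6 was abundant in every group and higher in E-V12, at 9.19 ± 0.98, than in CON, at 8.03 ± 1.02 (adjusted p = 0.0498). That call was lost without any of 12 arrays (all but CON replicates 2 and 4 and E-V12 replicates 2 and 3; 0.0513 to 0.218). Ccl3, Ccl20 and Ccl1 were the other CC chemokines past the test in E-V12/CON, by 1.35 ± 0.30, 1.03 ± 0.31 and 0.64 ± 0.22. Ccl3 and Ccl1 were below the highest background row on every E-V12 and CON array, and Ccl20 was above it in 2 E-V12 rats and no CON rat. The Ccl20 call was lost without CON replicate 4 (0.0834) or E-V12 replicate 3 (0.061), and the Ccl1 call without CON replicate 1, 3 or 4 or E-V12 replicate 2 or 4 (0.0681 to 0.117). The methods' t-test kept none of the calls of Ccl6, Ccl3, Ccl20 and Ccl1 (0.353, 0.0753, 0.118 and 0.134).

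The eosinophil chemokines Ccl11, Ccl24 and Ccl26 were weak on every array. Ccl24 differed by -0.83 ± 0.28 in V12/CON (adjusted p = 0.046) and by -1.07 ± 0.28 in E-V12/CON (adjusted p = 0.00673), and Ccl11 by -0.66 ± 0.20 in E-V12/CON (adjusted p = 0.0158). Ccl26 was lower by 0.56 in S-V12/V12 (adjusted p = 0.048). Ccl12, a mouse and rat monocyte chemokine, was higher by 0.80 in V12/CON (adjusted p = 0.0419). The Ccl24 call in V12/CON was lost without any of 10 arrays (0.0514 to 0.162: CON replicates 2, 3 and 4, V12 replicates 1, 2 and 3, S-V12 replicates 2 and 3, E-V12 replicates 1 and 2). The Ccl26 call was lost without any array but CON replicates 1 and 4 (0.0504 to 0.17), the Ccl12 call without any CON array or V12 replicate 1, 2 or 3 (0.0601 to 0.139), and the Ccl11 call without CON replicate 2 (0.0555) or E-V12 replicate 1 (0.0576). With the methods' t-test the Ccl24 calls gave 0.162 for V12/CON and 0.0686 for E-V12/CON, Ccl26 gave 0.0647 and Ccl12 gave 0.0666. Ccl21, which guides lymphocytes and dendritic cells, was abundant and passed no test, at 8.7 ± 0.14 in E-V12, 9.24 ± 0.49 in S-V12, 8.76 ± 0.45 in V12 and 8.25 ± 1.23 in CON.

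Cxcl1, Cxcl2 and Cxcl6 are CXC chemokines that bind CXCR2 and attract neutrophils. The log2 signal of Cxcl1 was 6.76, 6.48, 7.72 and 7.09 in E-V12, 6.52, 6.34, 6.56 and 6.06 in S-V12, 4.81, 6.44, 6.04 and 5.65 in V12, and 5.15, 5.09, 4.56 and 4.75 in CON. The E-V12 rats lay above all V12 and CON rats, and 3 of them lay above the highest background row, as did 1 S-V12 rat and no V12 or CON rat. Cxcl1 was at least 1.30-fold higher in E-V12/CON (log2 difference 2.12 ± 0.29, adjusted p = 7.02e-06). The difference of 0.85 ± 0.29 in V12/CON passed the test (adjusted p = 0.0497) and was lost without any of 12 arrays (all but CON replicate 1, V12 replicate 1 and E-V12 replicates 2 and 3; 0.054 to 0.195) and with the methods' t-test (0.264). Cxcl2 averaged 5.57 ± 0.79 in E-V12, 5.08 ± 0.37 in S-V12, 4.40 ± 0.47 in V12 and 4.84 ± 0.21 in CON and was not called, except in E-V12/CON without E-V12 replicate 2 (0.0179). Cxcl6 averaged 5.22 ± 0.87 in E-V12, where replicate 1 at 6.51 stood apart from 3 others between 4.57 and 4.93, and 4.02 ± 0.47 in CON (adjusted p = 0.025), a call lost without CON replicate 1 (0.0733) or 4 (0.0751) or E-V12 replicate 1 (0.125), or with the methods' t-test (0.181). Cxcr2, the receptor, lay between 3.49 and 5.15 on all arrays.

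Cxcl11, a ligand of CXCR3 that is induced by interferon, had log2 signals of 5.98, 5.48, 5.50 and 6.67 in E-V12, 5.72, 6.93, 6.04 and 5.61 in S-V12, 3.32, 3.70, 3.77 and 4.82 in V12, and 3.74, 3.48, 3.61 and 3.56 in CON. Both operated groups stood above all V12 and CON rats, but only 1 array in each reached the highest background row. The difference was 2.17 ± 0.31 in S-V12/V12 (adjusted p = 5.42e-05) and 2.31 ± 0.31 in E-V12/CON (adjusted p = 6e-06). Both calls held under every alternative that kept the gene. Cxcl11 was itself among the dim clusters, so it was not tested where these were left out. Cxcl10, a second interferon-induced ligand of CXCR3, averaged 5.55 ± 0.39 in E-V12, 5.24 ± 0.62 in S-V12, 5.06 ± 0.41 in V12 and 4.80 ± 0.28 in CON. It missed the threshold in each comparison, and was called higher in E-V12/CON with trend and robust variances (adjusted p = 0.0496), limma on the 2 groups alone (0.0312), quantile normalization (0.0469) and without any of 5 arrays (0.02 to 0.0478). Cxcl9, the third, was above the highest background row on all 16 arrays and averaged 8.25 ± 0.15 in E-V12, 8.46 ± 0.85 in S-V12, 9.25 ± 0.93 in V12 and 8.53 ± 0.69 in CON, also without a call.

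Few interleukin genes lay above the background rows. Il33, an alarmin stored in the nuclei of stromal and endothelial cells, had log2 signals of 6.18, 7.46, 8.0 and 7.97 in E-V12, 6.30, 7.45, 7.20 and 7.22 in S-V12, 8.95, 8.07, 8.85 and 7.88 in V12, and 6.73, 7.66, 7.67 and 7.41 in CON. The V12 rats lay above all S-V12 and CON rats, and E-V12, S-V12 and CON overlapped. It rose by 1.07 ± 0.35 in V12/CON (adjusted p = 0.0411) and was lower by 1.39 ± 0.35 in S-V12/V12 (adjusted p = 0.00877). The V12/CON call was lost without CON replicate 1 (0.127) or 4 (0.0713) or V12 replicate 1 (0.12) or 3 (0.128), and both were lost with the methods' t-test (0.146 for V12/CON, 0.0712 for S-V12/V12). Il33 alone among the 150 genes was called higher in V12/CON and lower in S-V12/V12.

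Il15, a cytokine that muscle fibres make and that sustains natural killer and memory T cells, had log2 signals of 6.20, 6.82, 6.25 and 6.21 in E-V12, 6.26, 6.15, 5.87 and 6.67 in S-V12, 8.41, 7.26, 7.12 and 7.58 in V12, and 9.12, 7.94, 8.37 and 7.68 in CON. All V12 and CON rats were above the highest background row and above every operated rat, while 1 rat of each operated group exceeded that row. Il15 was lower by 1.36 ± 0.29 in S-V12/V12 (adjusted p = 0.00282, and 0.0561 with the methods' t-test) and by 1.91 ± 0.29 in E-V12/CON (adjusted p = 3.16e-05), with -0.69 ± 0.29 in V12/CON (adjusted p = 0.127). The V12/CON difference was called without V12 replicate 1 (-0.96, adjusted p = 0.0237).

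Il6, which muscle releases on contraction and in inflammation, had log2 signals of 5.49, 4.73, 5.54 and 5.56 in E-V12, 5.53, 4.90, 5.23 and 5.58 in S-V12, 4.34, 4.55, 3.91 and 4.48 in V12, and 4.19, 4.17, 4.44 and 3.94 in CON. Every operated rat exceeded every V12 and CON rat, with all arrays below the highest background row. The difference was 0.99 ± 0.22 in S-V12/V12 (adjusted p = 0.00349) and 1.15 ± 0.22 in E-V12/CON (adjusted p = 0.000405). Il1b was likewise below that row and averaged 4.93 ± 0.52 in E-V12, 4.44 ± 0.51 in S-V12, 4.13 ± 0.49 in V12 and 3.62 ± 0.35 in CON, with a difference of 1.30 ± 0.29 in E-V12/CON (adjusted p = 0.00161). Il1rn, the IL-1 receptor antagonist, averaged 5.72 ± 1.08 in E-V12 and 4.87 ± 0.21 in CON, and Il18bp, which neutralises IL-18, 7.04 ± 0.20 in E-V12 and 7.31 ± 0.45 in CON, neither with a call, except for Il1rn without E-V12 replicate 2 (0.0334) or 4 (0.0386). Il1f10 was the other interleukin higher in E-V12/CON, at 3.62 in E-V12 and 2.93 in CON (adjusted p = 0.0368, lost without CON replicate 1 or 4 or E-V12 replicate 2 or 4, 0.0629 to 0.145, and 0.127 with the methods' t-test).

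**Figure D3:**
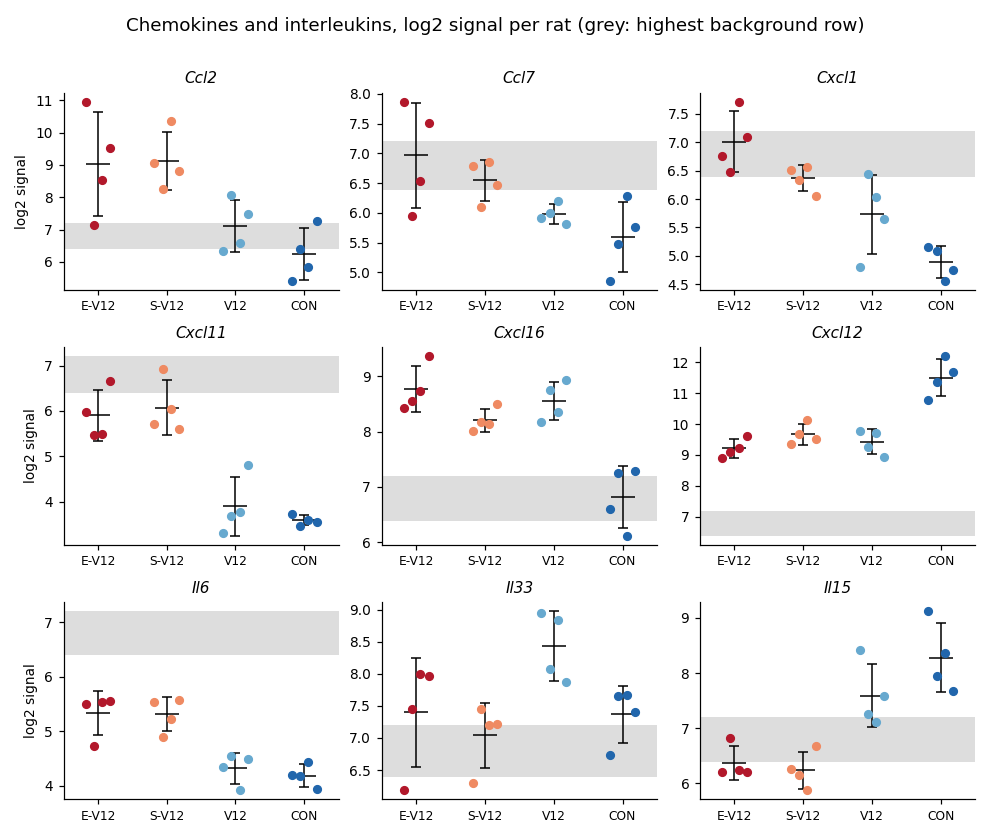
Log2 signal (y axis) of 9 chemokine and interleukin genes in each rat of the 4 groups (x axis), with the mean and SD of 4 rats in black and, in grey, the span of the highest background row over the arrays, 6.39 to 7.20. Cxcl12 is highest in CON, Il15 is higher in V12 and CON than in the operated groups, Il33 is highest in V12, and Il6 and most Cxcl11 points lie below the grey span.

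Promoters are shown for 5 genes that rose and hold letters bound by a factor of these pathways. The windows come from RefSeq on build GRCr8, and 116 of the 150 genes had one. Windows of 250 bases before and 50 after the start site were searched on both strands for GGANTTTCC, letters bound by NF-kB. These occur in 346 of 27457 promoters (1.26%) and in 8 of the 116 (6.90%): Cxcl1, Cxcl6, Cxcl10, Cxcl11, Il6, Il12a, Il17c and Ccr3. Of these, Cxcl1, Cxcl6, Cxcl11 and Il6 were higher in E-V12/CON and the other 4 were not called by the same model. The letters TTCNNNGAA, which STAT proteins bind, occur in 8.68% of all promoters and in 13 of the 116 (11.2%), Tnfrsf12a among them. The 250 bases before the start site follow, 5′ to 3′ on the gene's own strand, with GGANTTTCC on either strand in capitals for the 4 ligands, and TTCNNNGAA for Tnfrsf12a.
Cxcl1, chr14:17479322-17479571, minus strand: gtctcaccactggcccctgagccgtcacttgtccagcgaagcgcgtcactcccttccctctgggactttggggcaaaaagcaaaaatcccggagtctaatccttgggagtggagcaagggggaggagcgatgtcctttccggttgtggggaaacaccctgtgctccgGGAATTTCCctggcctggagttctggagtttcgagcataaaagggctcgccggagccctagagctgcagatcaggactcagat
Cxcl6, chr14:17596418-17596667, minus strand: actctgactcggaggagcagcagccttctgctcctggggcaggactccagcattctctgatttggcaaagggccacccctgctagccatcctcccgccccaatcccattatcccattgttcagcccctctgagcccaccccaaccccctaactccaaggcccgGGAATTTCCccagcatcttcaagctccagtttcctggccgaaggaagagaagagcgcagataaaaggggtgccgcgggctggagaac
Cxcl11, chr14:15973478-15973727, plus strand: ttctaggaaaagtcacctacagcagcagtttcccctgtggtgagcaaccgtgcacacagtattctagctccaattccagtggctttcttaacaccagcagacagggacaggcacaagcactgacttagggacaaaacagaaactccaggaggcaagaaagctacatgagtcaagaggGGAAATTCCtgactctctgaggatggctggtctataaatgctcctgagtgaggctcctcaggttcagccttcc
Il6, chr4:5894576-5894825, minus strand: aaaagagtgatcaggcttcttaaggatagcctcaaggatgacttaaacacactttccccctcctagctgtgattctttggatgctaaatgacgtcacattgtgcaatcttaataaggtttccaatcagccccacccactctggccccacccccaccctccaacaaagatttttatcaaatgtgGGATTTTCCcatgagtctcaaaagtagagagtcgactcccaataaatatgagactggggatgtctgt
Tnfrsf12a, chr10:13213649-13213898, minus strand: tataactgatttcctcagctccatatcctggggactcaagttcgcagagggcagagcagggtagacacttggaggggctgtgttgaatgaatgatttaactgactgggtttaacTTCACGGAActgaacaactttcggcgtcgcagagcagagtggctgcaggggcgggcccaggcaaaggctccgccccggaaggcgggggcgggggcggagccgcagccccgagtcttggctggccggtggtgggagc

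The matches begin 83, 87, 73 and 67 bases before the start of Cxcl1, Cxcl6, Cxcl11 and Il6, and 136 bases before that of Tnfrsf12a. The letters and windows were chosen with the calls in view, so this is a description, and no test of it was made.

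Of the weak interleukin receptors and ligands called lower in S-V12/V12, Il36b, Il20rb and Il22ra1 differed by -0.83 ± 0.25, -0.65 ± 0.21 and -0.63 ± 0.20 (adjusted p 0.0286, 0.0366 and 0.037). Il36b is an IL-1 family ligand, and Il20rb and Il22ra1 are chains of receptors of the IL-10 family. Il20rb lay at 5.73 ± 0.31 in S-V12 and 6.38 ± 0.22 in V12, and the other 2 genes lay lower still. Each call was lost without any of 5 or 6 arrays of the compared groups: Il36b without V12 replicate 3 or 4 or S-V12 replicate 1, 2 or 4 (0.0549 to 0.112), Il20rb without V12 replicate 2, 3 or 4 or S-V12 replicate 1, 2 or 3 (0.0551 to 0.122), and Il22ra1 without V12 replicate 1 or 4 or S-V12 replicate 1, 3 or 4 (0.0564 to 0.132). Tnfrsf11a, the receptor RANK, was higher by 0.90 ± 0.29 in the same comparison (adjusted p = 0.0189), which ended without V12 replicate 1 (0.0595) or 2 (0.0568) or S-V12 replicate 1 (0.0889). These 4 calls were also lost with the methods' t-test (0.0912 to 0.169).

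Of the 12 Toll-like receptors, 2 rose and 2 fell in E-V12/CON, near the 10.9% and 12.6% of all clusters. Tlr3, the sensor of double-stranded RNA, had log2 signals of 5.68, 5.19, 4.25 and 4.86 in E-V12, 5.06, 5.94, 5.54 and 5.95 in S-V12, 6.65, 4.32, 5.0 and 5.59 in V12, and 6.49, 7.07, 7.03 and 7.37 in CON. The CON rats lay above all but 1 ventilated rat, and 3 of them above the highest background row. The log2 difference of Tlr3 was -1.60 ± 0.37 in V12/CON (adjusted p = 0.00356; 0.147 with the methods' t-test) and -2.0 ± 0.37 in E-V12/CON (adjusted p = 0.000256), where its level in CON was at least 1.39-fold higher. Tlr7, the sensor of single-stranded RNA, rose by 0.97 ± 0.28 in E-V12/CON (adjusted p = 0.0126, lost without CON replicate 2, 0.0571). Tlr1 was higher by 0.98 ± 0.34 and Tlr5 lower by 0.60 ± 0.21. The Tlr1 call was lost without any of 8 arrays (CON replicates 2, 3 and 4, V12 replicates 2 and 3, E-V12 replicates 1, 3 and 4; 0.051 to 0.175) and the Tlr5 call without any of 6 (CON and E-V12 replicates 1, 2 and 3; 0.06 to 0.118). With the methods' t-test Tlr7, Tlr1 and Tlr5 gave 0.06, 0.171 and 0.114. Tlr7, Tlr1 and Tlr5 lay below the highest background row on every array. Tlr4, the receptor for lipopolysaccharide, averaged 7.38 ± 0.62 in E-V12, 7.63 ± 0.64 in S-V12, 7.19 ± 0.27 in V12 and 6.70 ± 0.46 in CON, and Tlr9 lay between 2.96 and 4.5 on all arrays; neither was called, except Tlr4 in E-V12/CON without E-V12 replicate 1 (0.0224).

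Electrical stimulation was compared with the sham operation in E-V12/S-V12. The smallest adjusted p among the 150 genes was 0.0757, for Tlr2, the receptor of bacterial lipoproteins. Tlr2 had log2 signals of 6.90, 7.14, 6.93 and 6.88 in E-V12, 5.85, 6.36, 6.43 and 6.18 in S-V12, 6.34, 6.68, 7.35 and 7.10 in V12, and 6.81, 6.47, 6.0 and 6.79 in CON. The 4 E-V12 rats stood above the 4 S-V12 rats, by 0.76 (95% interval 0.29 to 1.23), and both operated groups overlapped V12 or CON. Of the 150 genes, 3 had no overlap in this direction (Tlr2, Il12rb1 and Ccl26) and 0 in the other, against 6.11% and 7.35% of all clusters. Tlr2 passed when limma was fitted on the 2 groups alone (adjusted p = 0.0264). It also passed when dim clusters were left out (0.0328). It stayed in that set only because all E-V12 arrays, where it is high, lay above the highest background row. That setting is therefore no separate support.

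The intervals of genes described above show what the 4 rats per group allowed. For E-V12/S-V12 the difference and its 95% interval were -0.70 (-1.38 to -0.02) for Il4r, -0.70 (-1.71 to 0.31) for Tnfrsf12a, -0.76 (-1.29 to -0.23) for Tnfrsf1a and -0.28 (-0.96 to 0.40) for Tnfrsf21. They were 0.52 (-0.13 to 1.16) for Il13ra1, -0.09 (-1.30 to 1.13) for Ccl2, -0.17 (-0.82 to 0.48) for Cxcl11, 0.02 (-0.44 to 0.48) for Il6, 0.13 (-0.48 to 0.74) for Il15 and 0.65 (0.04 to 1.25) for Cxcl1. Differences of 1 log2 unit in at least 1 direction lie inside the intervals for 6 of these genes, so a p that missed the threshold does not show equal levels. The 8 control rows taken from their names to be spike-ins also differed between these groups, at 8.50 ± 0.09 in E-V12, 9.03 ± 0.10 in S-V12, 8.67 ± 0.23 in V12 and 9.06 ± 0.27 in CON, and their part in the comparison was not tested.

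The signalling genes downstream of these receptors were taken from a list of their own. Of 17 JAK, STAT and SOCS genes, the V12/CON comparison had 2 higher and 6 lower, S-V12/V12 had 6 and 0, E-V12/S-V12 had 0 and 0, and E-V12/CON had 5 and 4. Over all clusters, the shares higher and lower were 7.68% and 8.67% for V12/CON, 8.05% and 6.66% for S-V12/V12, 1.19% and 1.51% for E-V12/S-V12, and 10.9% and 12.6% for E-V12/CON. Stat3, the transcription factor used by IL-6 and IL-10 receptors, averaged 16.67 ± 0.09 in E-V12, 16.96 ± 0.11 in S-V12, 15.13 ± 0.55 in V12 and 12.13 ± 0.39 in CON. Socs3, its inducible inhibitor, averaged 10.71 ± 1.35, 12.18 ± 1.09, 6.85 ± 0.40 and 5.45 ± 0.15 in the same groups and rose by 5.33 ± 0.49 in S-V12/V12. Stat3 rose by 3.0 ± 0.24 in V12/CON and by another 1.83 ± 0.24 in S-V12/V12, with groups that did not overlap. Stat5a and Stat5b, which serve growth hormone and IL-2 family receptors, were lower by 1.36 and 1.13 in V12/CON.

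Of 32 NF-kB and adaptor genes, the V12/CON comparison had 9 higher and 3 lower, S-V12/V12 had 7 and 0, E-V12/S-V12 had 0 and 1, and E-V12/CON had 11 and 2. The 3 lower in V12/CON are near the 8.67% of all clusters, and the 9 and 11 higher compare with 7.68% and 10.9%. The 7 higher in S-V12/V12 compare with 8.05%, the 1 lower in E-V12/S-V12 with 1.51%, and the 2 lower in E-V12/CON with 12.6%. Myd88, the adaptor of Toll-like and IL-1 receptors, averaged 11.0 ± 0.39 in E-V12, 11.87 ± 0.45 in S-V12, 9.39 ± 0.81 in V12 and 6.77 ± 0.60 in CON. Rela, the p65 subunit of NF-kB, averaged 11.34 ± 0.20 in E-V12, 12.09 ± 0.20 in S-V12, 11.18 ± 0.23 in V12 and 9.48 ± 0.50 in CON. Nfkbia, the NF-kB inhibitor that is itself a target, rose by 2.0 ± 0.28 in V12/CON and had means of 10.91, 10.83 and 11.04 in E-V12, S-V12 and V12, against 9.04 in CON. The gene called lower in E-V12/S-V12 was Irak1, a kinase bound by Myd88, by 0.75 ± 0.20 (adjusted p = 0.0451).

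Of 36 cytokine and chemokine genes that carry other symbols, the V12/CON comparison had 6 higher and 1 lower, S-V12/V12 had 5 and 2, E-V12/S-V12 had 0 and 2, and E-V12/CON had 7 and 2. Over all clusters 7.68%, 8.05% and 10.9% were higher and 8.67%, 6.66% and 12.6% lower in the V12/CON, S-V12/V12 and E-V12/CON fits. In E-V12/S-V12, 1.19% of all clusters were higher and 1.51% lower. Osmr, the oncostatin M receptor, averaged 11.78 ± 0.61 in E-V12, 12.22 ± 0.14 in S-V12, 10.74 ± 0.31 in V12 and 8.87 ± 0.24 in CON. Lifr, the LIF receptor of the same family, went the other way, with 10.30 ± 0.22 in E-V12, 10.44 ± 0.15 in S-V12, 10.27 ± 0.61 in V12 and 12.26 ± 0.43 in CON. Relt, a TNF receptor relative, and Csf1, the macrophage growth factor, were lower in E-V12/S-V12 by 0.81 ± 0.19 (adjusted p = 0.0264) and 0.98 ± 0.27 (adjusted p = 0.0495). Of 7 inflammasome genes, 0 passed in any comparison, which is near the shares of all clusters given above. Nlrp3 lay above the highest background row on 12 arrays and Casp1 on 1. The other inflammasome genes lay below it on every array.

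Part of the monocyte and macrophage markers, and fewer of the neutrophil markers, were also called. The mean log2 signal of 15 monocyte and macrophage markers was 6.68 to 7.23 in E-V12, 6.84 to 7.51 in S-V12, 6.13 to 6.94 in V12 and 5.63 to 6.29 in CON. Of these markers, V12/CON had 5 higher and 1 lower, S-V12/V12 had 3 higher and E-V12/CON had 7 higher (all clusters: 7.68% and 8.67%, 8.05% and 10.9%), and 6, 5, 6 and 8 of them did not reach the highest background row in any rat of E-V12, S-V12, V12 and CON. Lyz2, lysozyme, averaged 13.66 ± 0.88 in E-V12, 14.00 ± 0.30 in S-V12, 11.66 ± 0.52 in V12 and 10.94 ± 1.03 in CON. Cd163, a scavenger receptor of tissue macrophages, averaged 9.44 ± 0.68 in E-V12, 9.36 ± 0.84 in S-V12, 8.72 ± 0.83 in V12 and 6.96 ± 0.63 in CON. Adgre1 had the largest fall in V12/CON, at 3.62 ± 0.46 in V12 and 4.48 ± 0.44 in CON, below the highest background row on every array. The part of these markers in the rise of Ccr1, Ccr2, Ccl2 and the other genes above was not tested.

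The mean of 12 neutrophil markers was 4.44 to 5.32 in E-V12, 4.31 to 4.62 in S-V12, 4.12 to 4.30 in V12 and 3.97 to 4.35 in CON, and 9, 11, 12 and 12 of them did not reach the highest background row in any rat of those groups. Of these markers, 1 was higher in V12/CON, 1 in S-V12/V12, 0 in E-V12/S-V12 and 3 in E-V12/CON, and 0 were lower. The shares of all clusters higher were 7.68%, 8.05%, 1.19% and 10.9%. S100a9 was the marker with the highest mean in E-V12 among those called, at 7.74 ± 1.59, against 5.41 ± 0.25 in CON. Its E-V12 values were 10.04, 6.49, 6.89 and 7.56, so replicate 1 raised that mean. The 14 lymphocyte markers stood at 4.23 to 4.37 in E-V12, 4.02 to 4.26 in S-V12, 4.25 to 4.53 in V12 and 4.29 to 4.37 in CON, with 13, 13, 12 and 13 below the highest background row. In all comparisons 0 rose, and 1 was lower in E-V12/CON, against 12.6% of all clusters. Cd4 had the largest fall there, at 6.04 ± 0.36 in E-V12 and 7.0 ± 0.48 in CON. E-V12 replicate 1 had the highest neutrophil mean, and it was also the highest E-V12 rat for 15 of the 28 genes that were higher in E-V12/CON. Without that rat, 26 were higher and 7 lower.

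**Figure D4:**
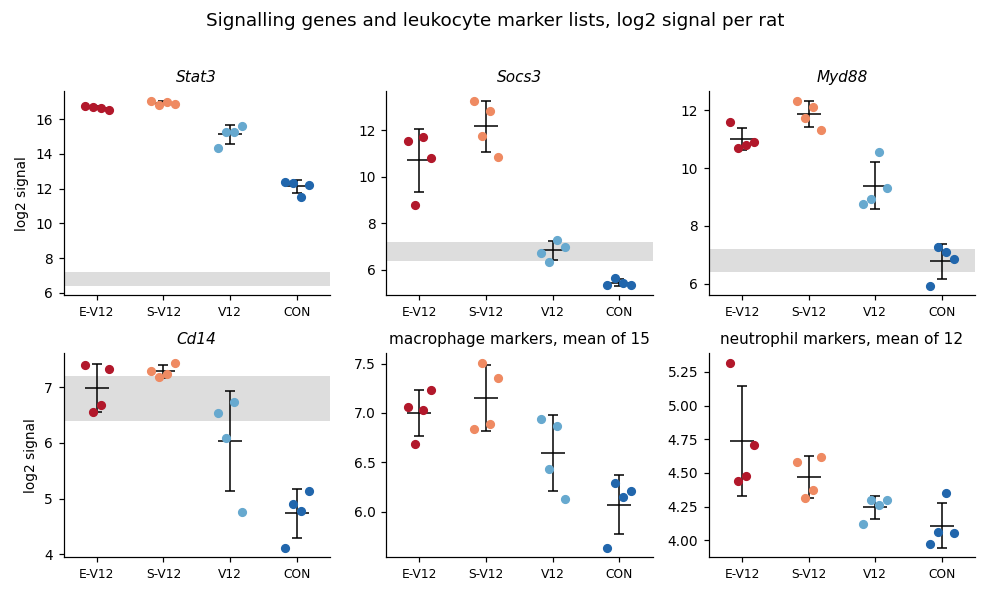
Log2 signal (y axis) in each rat of the 4 groups (x axis) for Stat3, Socs3, Myd88 and the lipopolysaccharide co-receptor Cd14, and the mean log2 signal of 15 macrophage and 12 neutrophil markers, with the mean and SD of 4 rats in black and the span of the highest background row, 6.39 to 7.20, in grey. Stat3 and Myd88 are lowest in CON, Socs3 is high in the operated groups, and 1 E-V12 rat has the highest neutrophil mean at 5.32.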

How the data were processed

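Total RNA of 16 diaphragms was labelled and hybridized to Clariom S arrays. As deposited, each transcript cluster has a log2 signal that the authors normalized by SST-RMA, a form of RMA, in Transcriptome Analysis Console. No other normalization was added. Of 24834 entries, 1646 control rows were left out of tests. Symbols came from the platform annotation, which 15049 clusters had. No symbol among the 150 had several clusters. Il1r1 was not analysed here, and the gene of Il4ra was analysed under the symbol Il4r.

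The 4 group means of 23188 clusters were fitted in 1 model (limma 3.58.1, R 4.3.3) with empirical Bayes variances and tested two-sided, with Benjamini-Hochberg adjusted p under 0.05 per comparison. A group counted as not reaching background where none of its arrays exceeded its own highest background row, and a bound ("at least") sets the brighter group's mean against the dim group's, with each dim array raised to that row where it lay lower. The model was tested on simulated data.

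The members and lists were chosen with earlier results of these data known. Named were the 8 highest and 8 lowest called members of each comparison and a fixed list, in all 54 genes; further called genes, and the genes at or near the background, were named after their values were seen. Alternatives were the methods' t-test (with adjustment, or unadjusted with a fold of 2), trend and robust variances, the 2 groups alone, dim clusters left out, quantile normalization, median centring, the replicate number as a block, and each array left out. The arrays come from separate animals, and their number sets the precision.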

Additional observations from a re-analysis of the deposited data

Results flagged for a closer look

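Over the 54 named genes and 4 groups, 216 sets of 4 rats were searched for a highest or lowest rat whose gap to the next relative to the range exceeded Dixon's critical value for 4 samples. Chance flags about 5% of sets, and 9 sets (4.2%) were found. In CON, replicate 1 was lowest for Ccl21 at 6.41 (others 8.71 to 8.97) and for Ccr1 at 4.68 (5.80 to 5.89), and replicate 3 was highest for Il18bp at 7.99 (7.03 to 7.15). In V12, replicate 4 was highest for Ccl11 at 5.49 (4.73 to 4.84). In S-V12, replicate 2 was lowest for Ccl26 at 4.48 (4.95 to 5.0), replicate 3 lowest for Tlr4 at 6.68 (7.85 to 8.04) and replicate 4 highest for Cxcl10 at 6.16 (4.85 to 5.07). In E-V12, replicate 2 was highest for Il15 at 6.82 (6.20 to 6.25) and lowest for Il6 at 4.73 (5.49 to 5.56).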

How the results depend on the processing

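The counts of genes called higher kept within 1.5 times under most settings, and those called lower, fewer in number, moved more. With the methods' t-test and adjusted p, V12/CON had 3 higher and 2 lower, S-V12/V12 had 13 and 1, and E-V12/CON had 11 and 8. With its unadjusted p and a fold of 2 the counts were 6 and 4, 12 and 2, and 17 and 6. With dim clusters left out they were 6 and 2, 10 and 3, and 13 and 3, since fewer genes were tested, with 1 higher in E-V12/S-V12, as also with limma on those 2 groups alone. That gene was Tlr2, which was kept among the brighter clusters only through its E-V12 arrays. The lower genes in S-V12/V12 numbered 4 with quantile normalization and 3 with median centring. Trend and robust variances gave 8 and 6, 11 and 5, and 28 and 9. Some genes missed by the main fit passed under other settings. Among them, Cxcl14 and Il1r2 were higher in S-V12/V12 under several settings. With limma on the 2 groups alone their adjusted p was 0.00844 and 0.00421. Where the cause of a change of count is not named, the cause was not tested.

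Leaving out 1 array at a time gave V12/CON 5 to 9 higher and 4 to 8 lower, S-V12/V12 10 to 14 and 2 to 8, E-V12/CON 21 to 28 and 7 to 11, and E-V12/S-V12 0 and 0. The 5 in V12/CON came without V12 replicate 3. In S-V12/V12 the lower genes numbered 4 without V12 replicate 3 or S-V12 replicate 2, 3 or 4, 3 without V12 replicate 4 and 2 without S-V12 replicate 1. No difference of a named gene changed direction while called under any setting.

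The groups share replicate numbers, but no source says what they pair. Deviations of same-numbered rats correlated at -0.10 to 0.11 (median 0.00), and those of other rats at -0.14 to 0.13. No pairing was seen over all clusters, but a pairing that touches few genes would not show in this way. With the replicate number as a block, V12/CON had 7 higher and 6 lower, S-V12/V12 had 14 and 5, E-V12/S-V12 had 0 and 0, and E-V12/CON had 26 and 8. Signals near the background rows limit most of the 150 genes.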
